A study of Mus musculus with 48 samples.

Results

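The comparison described here is the effect of angiotensin II on gene expression in the brain hemisphere, pooled over hydralazine: the 12 hemisphere libraries of mice given angiotensin II against the 12 of mice given vehicle, with hydralazine as an additive covariate. It uses 24 of the 48 RNA sequencing libraries of the study, whose other 24 come from the hippocampus. Treated animals were wild-type male C57Bl6 mice with an osmotic minipump that delivered angiotensin II at 0.7 mg per kg per day for 2 weeks, and their controls were mice of the same strain, sex and genotype whose pumps delivered saline for the same time. In both arms 1 group drank hydralazine (50 mg per kg), so the 4 groups of 6 libraries are AngII, Vehicle, AngII+Hyd and Vehicle+Hyd. Age is not given in the sources used here. Nor do the labels tie each replicate to its own mouse, so the p-values describe spread among libraries, which may be technical. Libraries were chosen by their labels alone, and all 24 entered the fit.

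Angiotensin II is the effector peptide of the renin-angiotensin system. It constricts arteries and promotes salt retention through its type 1 receptor, and its infusion over weeks is a standard way of raising blood pressure in mice. Hydralazine relaxes arterial smooth muscle directly and lowers blood pressure without blocking that receptor. In the brain, circulating angiotensin II meets the endothelium of cerebral vessels first, behind which lie smooth muscle cells, pericytes, perivascular macrophages and the endfeet of astrocytes. The pooled comparison asks which genes differ with angiotensin II whether or not hydralazine was given, and the interaction of both drugs asks which differ more in one setting than in the other.

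Hemisphere libraries held 15.77 to 23.5 M reads in genes (median 18.97 M, where M is 1000000) and listed 23161 to 25610 genes above 0. Expression is given in FPKM, fragments per kilobase of gene per M reads. Differences are on log2(FPKM + 0.5), where the added 0.5 shrinks the change of weakly expressed genes. The tissue label was met: all 20 neuronal identity genes examined were detected and summed to 2423 to 3082 FPKM with angiotensin II and 2399 to 2795 FPKM without it, and all 16 cortical layer genes were present at 175.9 to 189 FPKM and 177 to 186.9 FPKM. AngII replicate 6 stood apart from the rest. Mitochondrial transcripts made up 2.77% of its reads, against 5.7% to 7.22% in the other 23 hemisphere libraries, and it gave 9 of the 15 values that lay far from their group among the genes examined. Pooled medians of gene lists are given without it as well where it turned them or moved them by over 1.5 times. Medians without hydralazine include this library and were not repeated without it, so they differ from those with hydralazine by this library too.

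With angiotensin II 3 genes rose in the hemisphere: Podxl, which encodes the sialomucin podocalyxin of the endothelial surface facing the blood, Eln, the gene of elastin, which lets arterial walls recoil, and Pglyrp1, which encodes a secreted protein that binds bacterial cell walls and is also found in brain endothelium. These were 3 of 16747 genes tested (0.0179%) at a Benjamini-Hochberg adjusted p under 0.05 in limma, and no gene was lower at that threshold. The changes were between 1.25-fold and 1.43-fold. The count was 6 without AngII replicate 1 or without Vehicle replicate 1, 5 without Vehicle+Hyd replicate 3, 11 without AngII+Hyd replicate 4, and 3 without AngII replicate 6. The count was 2 without AngII replicate 5, without AngII+Hyd replicate 2, 3 or 6, without Vehicle replicate 2, 3, 4 or 5, and without Vehicle+Hyd replicate 2. It was 1 with no filter on low values and 1 with replicate number as a block. It was 99 when limma weighted libraries by their quality. Before adjustment 897 genes were higher (5.36%) and 636 lower (3.8%) at a p under 0.05. The median log2 fold change over all genes was 0.0001, and in no gene did all 12 libraries with angiotensin II lie above, or all below, all 12 without it.

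Podxl (ENSMUSG00000025608, GRCm38 chromosome 6, 31519488 to 31563981, minus strand) ranged between 8.62 and 10.6 FPKM with a median of 9.39 FPKM in the 12 libraries with angiotensin II, and between 6.89 and 9.15 FPKM with a median of 7.47 FPKM in the 12 without it. A single control library, Vehicle+Hyd replicate 6 at 9.15 FPKM, lay within the range of the angiotensin II libraries. The means were 9.60 ± 0.657 FPKM with angiotensin II and 7.59 ± 0.678 FPKM without it (SD, n = 12 each). On the log2 scale the difference was 0.32 ± 0.05 (SE; adjusted p = 0.00368 in limma). The change was 0.35 ± 0.07 between AngII and Vehicle and 0.29 ± 0.07 between AngII+Hyd and Vehicle+Hyd, and these did not differ detectably (interaction -0.06 ± 0.09, unadjusted p = 0.504 in limma). Every angiotensin II library lay above the mean of its own controls, which is not independent of the call made on the same values. Without AngII replicate 6 the log2 fold change was 0.32 (adjusted p = 0.00363).

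Eln (ENSMUSG00000029675, chromosome 5, 134702593 to 134747323, minus strand) had 2.11 to 3.99 FPKM with a median of 2.69 FPKM in the angiotensin II libraries, and 1.28 to 2.21 FPKM with a median of 1.73 FPKM in the controls. In mice without hydralazine the ranges were 2.19 to 3.99 FPKM in AngII and 1.28 to 1.78 FPKM in Vehicle. With hydralazine they overlapped at their edges, with 2.11 to 2.97 FPKM in AngII+Hyd and 1.62 to 2.21 FPKM in Vehicle+Hyd. The pooled log2 fold change was 0.51 ± 0.08 (limma adjusted p = 0.0166). The highest value belonged to AngII replicate 6, without which the change was 0.46 ± 0.07 (adjusted p = 0.0061). The effect was 0.64 ± 0.11 without hydralazine and 0.39 ± 0.11 with it, a difference of -0.26 ± 0.16 that did not pass (unadjusted p = 0.125 in limma). An antisense gene, Gm30003, lies within Eln at a mean of 0.329 FPKM, and the strand setting of the counting is not given in the sources used here.

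Pglyrp1 (ENSMUSG00000030413, chromosome 7, 18871331 to 18890459, plus strand) had 3.86 to 6.76 FPKM with a median of 5.20 FPKM in the angiotensin II libraries, and 3.11 to 5.22 FPKM with a median of 3.76 FPKM in the controls. The overlap came mainly from 1 control and 1 treated library: Vehicle replicate 1 was at 5.22 FPKM while the next control was at 4.23 FPKM, and AngII replicate 1 was at 3.86 FPKM while the next angiotensin II library was at 4.45 FPKM. The log2 fold change was 0.47 ± 0.08 (limma adjusted p = 0.02115) and nearly the same without hydralazine (0.48 ± 0.11) and with it (0.45 ± 0.11), with an interaction of -0.02 ± 0.16. It was the least secure of the 3 calls, since it was lost in 15 of 41 alternative fits. Among these were 9 of the 24 fits that left out 1 library each: AngII replicate 5, AngII+Hyd replicates 2, 3 and 6, Vehicle replicates 2, 3, 4 and 5 and Vehicle+Hyd replicate 2, with log2 fold changes of 0.45 to 0.46. Of the 41 alternative fits, Eln was lost in 7 and Podxl in 2, and both were kept in all 24 that left out 1 library.

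**Figure D1:**
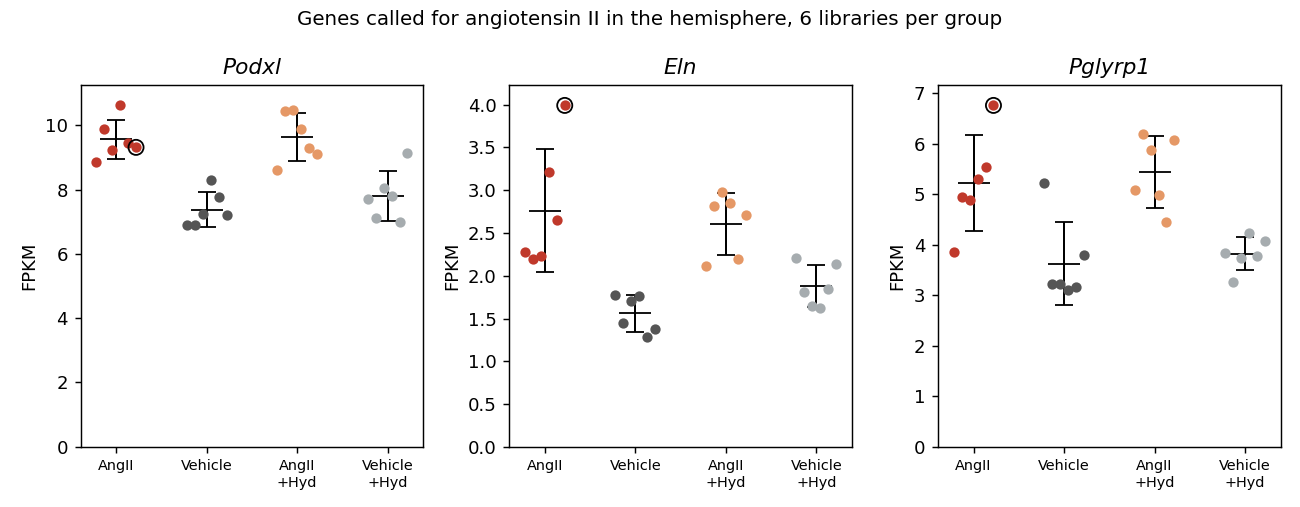
Podxl, Eln and Pglyrp1 in each hemisphere library, in FPKM on axes that start at 0. Each point is 1 library, the bars are the mean and SD of 6 libraries, and the circled point is AngII replicate 6; Podxl averaged 9.56 FPKM in AngII and 7.38 FPKM in Vehicle, and 9.64 FPKM in AngII+Hyd and 7.80 FPKM in Vehicle+Hyd.

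Promoters are shown for Pglyrp1, as a called gene with an entry in the RefSeq promoter table (build GRCm38.p6), and for Junb and Nr4a1, the immediate early genes with the smallest p among those in the table. None of the immediate early genes passed the threshold, and these were picked after their values were seen. Each sequence runs 5′ to 3′ on the gene's strand over 250 bases before and 50 after the start, and capitals mark TGACG, the core of the cAMP response element, and the GC box GGGCGG, on either strand.
Pglyrp1 (chr7:18884440-18884739, plus strand): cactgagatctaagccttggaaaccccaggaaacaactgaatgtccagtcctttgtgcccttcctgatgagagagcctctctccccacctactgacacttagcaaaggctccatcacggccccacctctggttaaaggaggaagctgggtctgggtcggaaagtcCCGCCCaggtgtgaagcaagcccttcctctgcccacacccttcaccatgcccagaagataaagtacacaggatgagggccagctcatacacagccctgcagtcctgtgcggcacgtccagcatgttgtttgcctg
Junb (chr8:84978699-84978998, minus strand): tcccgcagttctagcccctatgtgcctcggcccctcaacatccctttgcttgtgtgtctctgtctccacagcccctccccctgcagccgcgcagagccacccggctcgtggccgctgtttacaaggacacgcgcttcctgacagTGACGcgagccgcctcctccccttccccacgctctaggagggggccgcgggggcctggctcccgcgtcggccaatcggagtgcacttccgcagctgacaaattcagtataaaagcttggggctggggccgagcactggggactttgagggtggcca
Nr4a1 (chr15:101266596-101266895, plus strand): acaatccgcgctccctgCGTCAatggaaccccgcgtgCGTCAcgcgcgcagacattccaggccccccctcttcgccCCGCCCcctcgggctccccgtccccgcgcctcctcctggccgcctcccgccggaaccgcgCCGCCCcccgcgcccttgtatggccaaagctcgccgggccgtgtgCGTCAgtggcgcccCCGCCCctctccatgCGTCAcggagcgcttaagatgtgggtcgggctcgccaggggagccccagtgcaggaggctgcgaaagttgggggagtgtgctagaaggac
The RefSeq start of Pglyrp1 lies 13359 bases downstream of the start the deposited table gives, and that of Nr4a1 12577 bases downstream. The Pglyrp1 window holds 1 GC box and no core, the Junb window 1 core, and the Nr4a1 window 4 cores and 3 GC boxes. Of 32851 promoters in the table, 20.8% hold the core on either strand, 1.79% the full element TGACGTCA, which holds overlapping cores on both strands, 1.63% a CArG box (the core of the serum response element) and 35.7% a GC box. Of the 66 immediate early genes tested, 52 have an entry, and among these the shares were 55.8%, 7.69%, 3.85% and 75%. The units differ: the whole table counts every listed start of 27025 genes, tested here or not. For the immediate early genes 1 start per gene was taken, the nearest to the deposited gene start. These are counts of letters in the windows and not of bound sites.

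The next named genes by p did not pass, and their values are given as such. Of 41 alternative fits, Neat1 passed in 7, Aif1 in 5, Sik1 and Kdm6b in 4 each, Ly6a in 3, Mgp in 2 and Rcc1l in 1. Neat1, a nuclear long noncoding RNA that builds paraspeckles, had 7.56 to 10.4 FPKM with angiotensin II and 5.99 to 8.59 FPKM without it, a log2 fold change of 0.30 ± 0.06 (limma adjusted p = 0.0702). Aif1, which encodes the microglial and macrophage protein IBA1, had 3.03 to 5.02 FPKM and 2.11 to 3.98 FPKM, a change of 0.44 ± 0.08 (adjusted p = 0.0702). Every angiotensin II library exceeded the mean of its own controls for Aif1, and 11 of 12 did for Neat1. Aif1 was ranked by p on these same values and Neat1 was chosen with earlier results known. These library counts are therefore not independent evidence, and their share over all genes was not taken. Ly6a, a surface protein gene of brain endothelium in mice and a member of a multigene family, averaged 29.5 ± 5.23 FPKM with angiotensin II and 21.4 ± 3.13 FPKM without it, a change of 0.44 ± 0.09 (adjusted p = 0.0957). Mgp, which encodes the matrix Gla protein that keeps arterial walls free of calcium, averaged 28.0 ± 5.81 FPKM and 19.6 ± 3.66 FPKM, a change of 0.50 ± 0.11 (adjusted p = 0.1). For Mgp the highest library was AngII replicate 6 at 42.8 FPKM, and the change was 0.44 without it. Rcc1l, which encodes a mitochondrial protein related to the exchange factor RCC1, averaged 6.42 ± 0.805 FPKM and 5.22 ± 0.464 FPKM, a change of 0.27 ± 0.06.

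On the lower side the smallest p belonged to Sik1, which encodes a salt-inducible kinase that restrains CREB coactivators. It had 2.04 to 3.27 FPKM with a median of 2.47 FPKM with angiotensin II and 2.82 to 5.62 FPKM with a median of 3.53 FPKM without it, a log2 fold change of -0.48 ± 0.09 (limma adjusted p = 0.0819). All 12 angiotensin II libraries lay below the mean of their own controls, a count that is not independent of the ranking by p. Kdm6b, a histone H3 lysine demethylase gene, averaged 5.14 ± 0.393 FPKM with angiotensin II and 6.26 ± 0.729 FPKM without it (-0.26 ± 0.05, adjusted p = 0.1), and Adrb1, which encodes the beta-1 adrenergic receptor, 7.50 ± 0.781 FPKM and 9.07 ± 0.828 FPKM (-0.26 ± 0.06, adjusted p = 0.107). Junb, a subunit of the AP-1 transcription factor, averaged 17.9 ± 5.04 FPKM and 30.4 ± 8.99 FPKM (-0.73 ± 0.16, adjusted p = 0.104). Prdx2 overlaps Junb on the opposite strand at a mean of 72.9 FPKM, and without the strand setting reads of both genes cannot be told apart.

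The gene lists below were described by counts against all genes tested, of which 8375 of 16747 lay above 0 and 5.36% were higher and 3.8% lower at an unadjusted p under 0.05. Of 24 endothelial genes 20 lay above 0, with a median log2 fold change of 0.09. At an unadjusted p under 0.05, 9 were higher and 1 was lower, and Podxl and Pglyrp1 passed adjustment. Pecam1, an endothelial adhesion molecule, averaged 4.19 ± 0.420 FPKM with angiotensin II and 3.70 ± 0.412 FPKM without it (0.16 ± 0.05, limma adjusted p = 0.355). Itm2a, an endothelial membrane protein gene, was at 39.6 ± 4.33 FPKM in AngII+Hyd and 32.2 ± 3.75 FPKM in Vehicle+Hyd, and at 30.5 ± 3.12 FPKM in AngII and 32.1 ± 2.22 FPKM in Vehicle, with a pooled change of 0.11 ± 0.07. Over the 22 endothelial genes that were not called, the mean log2 level was 2.47 ± 0.08 with angiotensin II and 2.38 ± 0.09 without it (SD, n = 12 each), and their sum ranged between 159.8 and 207.2 FPKM and between 143.9 and 186.8 FPKM. None of the 22 was at 0 in all hemisphere libraries. With that mean as a covariate, added after the data were seen, the change was 0.28 for Podxl (adjusted p = 0.0366), 0.43 for Eln (0.052) and 0.34 for Pglyrp1 (0.052). In bulk tissue, more cells of a type and more RNA per cell cannot be told apart.

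Genes of the blood-brain barrier, which seal endothelial junctions and carry nutrients, gave 9 of 18 members above 0, a median of 0.0038 (-0.03 without AngII replicate 6) and no member past an unadjusted p of 0.05. Cldn5, the main tight junction claudin of brain endothelium, averaged 47.1 ± 9.24 FPKM with angiotensin II and 44.5 ± 8.25 FPKM without it, a change of 0.08 ± 0.10, or 0.02 ± 0.08 without AngII replicate 6 at 73.0 FPKM. Elastic fibre and arterial matrix genes were above 0 in 12 of 15 members with a median of 0.08, or 0.04 both without AngII replicate 6 and with library weights. Eln was the only one of these past an unadjusted p of 0.05, and the median was 0.16 without hydralazine and -0.0056 with it. The 0.16 includes AngII replicate 6 and was not repeated without that library. The summed level of this list in AngII had a median of 45.1 FPKM and a maximum of 78.3 FPKM. All 14 collagen genes were above 0, with a median of 0.06 and 1 past an unadjusted p of 0.05. Mural cell genes, of smooth muscle and pericytes, were above 0 in 13 of 17 with a median of 0.09 and 4 higher at an unadjusted p under 0.05. Their summed level was 106.6 to 170.4 FPKM with angiotensin II and 93.9 to 138.9 FPKM without it, the highest in AngII replicate 6, without which the median was 0.05. With the endothelial covariate the median of the mural genes was -0.0018 and that of the complement and antigen presentation genes 0.10 each, while that of the immediate early transcription factor genes was -0.41. Whether more mural or endothelial material entered the angiotensin II samples was not tested.

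Of 16 genes of the renin-angiotensin system itself, 10 passed the filter on low values. Of these, 7 lay above 0, with a median of 0.05 (0.02 with quantile scaling), and none passed adjustment, although 2 were higher at an unadjusted p under 0.05. Agt, which encodes the precursor of angiotensin peptides and is made in the brain mainly by astrocytes, averaged 48.4 ± 9.66 FPKM with angiotensin II and 44.3 ± 8.67 FPKM without it, a change of 0.13 ± 0.10 (limma adjusted p = 0.699), or 0.07 without AngII replicate 6 at 76.0 FPKM. Ace, which encodes the enzyme that converts angiotensin I, averaged 5.06 ± 0.904 FPKM and 5.04 ± 0.847 FPKM (0.0084 ± 0.0859). The type 1 receptor gene Agtr1a did not reach the level needed for the test. Endothelin, nitric oxide and cGMP signalling genes gave 4 of 12 above 0, a median of -0.02 (-0.0076 without AngII replicate 6) and none past an unadjusted p of 0.05. Edn1, which encodes the vasoconstrictor endothelin-1, had 1.04 to 1.51 FPKM in AngII, 0.887 to 1.75 FPKM in Vehicle, 1.45 to 5.38 FPKM in AngII+Hyd and 0.825 to 4.73 FPKM in Vehicle+Hyd. Its pooled change was 0.23 ± 0.19, and the values above 2 FPKM were all in hydralazine libraries.

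Most immune lists lay above 0 more often than below, with no member past adjustment. Cytokine, chemokine and adhesion molecule genes were near even, with 6 of 11 above 0. Their median was 0.0041 (0.03 without AngII replicate 6), and no member passed an unadjusted p of 0.05. Complement genes were above 0 in all 9 tested, with a median of 0.20 (0.14 without AngII replicate 6) and 5 higher at an unadjusted p under 0.05. Among these 5, C1qa, C1qb and C1qc are also members of the microglial list below, so both lists count them. C4b, the complement component made by astrocytes and oligodendrocytes in mouse brain, had 4.98 to 11.4 FPKM with a median of 6.17 FPKM with angiotensin II and 4.27 to 6.05 FPKM with a median of 5.08 FPKM without it. The 11.4 FPKM belonged to AngII replicate 6. The change in C4b was 0.31 ± 0.09 with that library and 0.25 ± 0.06 without it (limma adjusted p = 0.223 and 0.127). Antigen presentation genes were above 0 in 16 of 17, with a median of 0.18 (0.10 without AngII replicate 6), 0.27 without hydralazine and 0.07 with it. The 0.27 includes AngII replicate 6 and was not repeated without that library. H2-Eb1, an MHC class II chain gene, was at 13.5 FPKM in AngII replicate 6 and at 2.82 to 4.69 FPKM in the other 11 angiotensin II libraries, against 2.11 to 3.80 FPKM in the controls. Its change was 0.46 ± 0.16 with that library and 0.31 ± 0.09 without it, and that of the class II gene H2-Aa 0.39 ± 0.13 and 0.31 ± 0.11.

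Microglial genes lay on both sides of 0. Of 20, 15 were above 0 with a median of 0.04, or 0.02 without AngII replicate 6, and 6 were higher and 2 lower at an unadjusted p under 0.05. The 6 include C1qa, C1qb and C1qc, which the complement list counts as well. Their sum was 253.5 to 352.9 FPKM with angiotensin II and 242.8 to 302.6 FPKM without it. Border macrophage genes were low, with 4 of 10 tested and all 4 above 0 (median 0.17). Lymphocyte and neutrophil genes, of which 7 of 16 passed the filter, had the highest median of the 44 lists at 0.22 (0.14 without AngII replicate 6), with 4 of the 7 above 0 and none past an unadjusted p of 0.05. All 16 summed to 6.75 to 24.5 FPKM with angiotensin II and 6.97 to 23.8 FPKM without it. Interferon response genes were above 0 in 19 of 23 with a median of 0.07, and 7 were higher at an unadjusted p under 0.05. Vcam1, an adhesion molecule for leukocytes, averaged 2.43 ± 0.392 FPKM with angiotensin II and 2.46 ± 0.145 FPKM without it, with 1.28 FPKM in AngII replicate 6. The cytokine genes Il1b and Ccl2 and the oxidase subunit gene Cybb were below the filter.

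Astrocyte and myelin genes lay near 0, with medians of 0.03 over 18 and -0.02 over 20 genes, the first of which was -0.02 with quantile scaling and the second 0.0045 with library weights and -0.01 without AngII replicate 6. Genes of reactive astrocytes were above 0 in 15 of 17, with a median of 0.07 (0.08 without AngII replicate 6), and 4 were higher at an unadjusted p under 0.05. Gfap, the intermediate filament gene of astrocytes, had 70.5 to 113.9 FPKM with a median of 79.3 FPKM with angiotensin II and 57.5 to 78.9 FPKM with a median of 70.8 FPKM without it. The change was 0.22 ± 0.07 (limma adjusted p = 0.309), or 0.17 ± 0.05 without AngII replicate 6, the highest library. Mbp, the myelin basic protein gene, averaged 520.0 ± 46.5 FPKM and 500.6 ± 44.8 FPKM, a change of 0.05 ± 0.05.

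Genes that neurons and vessels induce within minutes of stimulation lay below 0 as a group, and none passed adjustment in the pooled fit. Of 24 immediate early transcription factor genes 23 were below 0, with a median log2 fold change of -0.33 (-0.27 without AngII replicate 6) and 17 lower at an unadjusted p under 0.05. Feedback inhibitors were below 0 in 20 of 22, with a median of -0.16 and 10 lower, and effectors in 15 of 20, with a median of -0.09 (-0.05 with library weights) and 6 lower. Members of these lists were known to differ in these libraries when the lists were drawn up, so their counts are not independent evidence of direction. The mean log2 level of the 24 transcription factor genes was 2.81 ± 0.18 with angiotensin II and 3.16 ± 0.26 without it (SD, n = 12 each).

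Arc, a regulator of synaptic receptors induced by neuronal firing, had 18 to 29.8 FPKM in AngII and 40.1 to 123.6 FPKM in Vehicle. In the hydralazine groups Arc had 23.3 to 74.3 FPKM in AngII+Hyd and 30.9 to 103.1 FPKM in Vehicle+Hyd, which overlapped widely. The pooled change was -1.12 ± 0.26 (limma adjusted p = 0.137), made up of -1.82 ± 0.31 without hydralazine and -0.41 ± 0.31 with it. The same split appeared in Fos, a partner of Jun proteins in AP-1, with a pooled change of -0.93 ± 0.23, -1.45 ± 0.30 without hydralazine and -0.42 ± 0.30 with it. For Nr4a1, an orphan nuclear receptor gene, the values were -0.67 ± 0.16, -1.02 ± 0.20 and -0.31 ± 0.20, and for Egr1, a zinc finger factor, -0.42 ± 0.13, -0.59 ± 0.18 and -0.24 ± 0.18. A single library on each side stood out in several of these genes. Vehicle replicate 3 was the lowest of its group for Arc, Junb, Fos, Nr4a1 and Dusp1, and AngII+Hyd replicate 4 was the highest of its group for the same genes. Without AngII+Hyd replicate 4 the pooled fit called 11 genes, 5 higher and 6 lower. Arc at -1.25, Junb at -0.81 and Nr4a1 at -0.75 were among them. Without Vehicle replicate 3 the pooled fit called 2 genes, 2 higher and 0 lower.

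**Figure D2:**
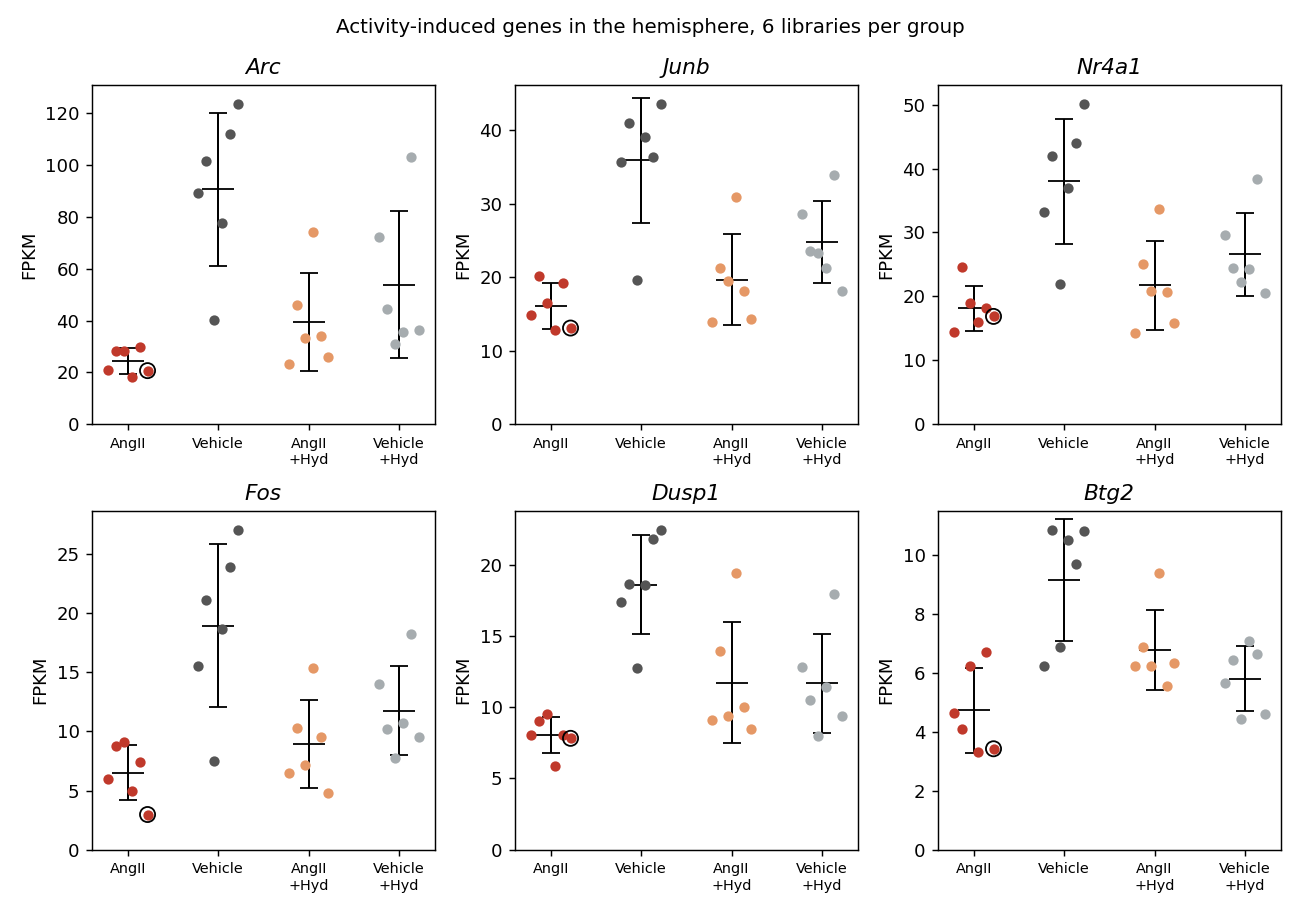
Arc, Junb, Nr4a1, Fos, Dusp1 and Btg2 in each hemisphere library, in FPKM on axes that start at 0. Points are libraries, bars the mean and SD of 6, and the circle marks AngII replicate 6; Arc averaged 24.3 FPKM in AngII and 90.7 FPKM in Vehicle, and 39.5 FPKM in AngII+Hyd and 53.8 FPKM in Vehicle+Hyd.

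Within the fit with 1 mean per group, 12 genes passed for AngII against Vehicle (0.0717%), 3 higher and 9 lower, and 0 passed for AngII+Hyd against Vehicle+Hyd (0.0%; limma, with 501 genes, 2.99%, at an unadjusted p under 0.05). A fit of the 12 AngII and Vehicle libraries alone called 2 of 15831 genes, none higher and 2 lower, and there the adjusted p was 0.212 for Podxl and 0.34 for Eln. The 2 contrasts of the larger fit share no library, although they share the estimate of spread. Of the 12 genes 11 had the same sign with hydralazine and all 12 a smaller change. The 12 genes were chosen on the first of these contrasts. In 3 of the 12, Podxl, Eln and Neat1, the change with hydralazine had an unadjusted p under 0.05 (0.00017, 0.00261 and 0.0329). For Dusp1, which encodes a MAP kinase phosphatase, the change was -1.15 ± 0.19 without hydralazine and -0.01 ± 0.19 with it. For Btg2, an antiproliferative gene, it was -0.90 ± 0.17 and 0.21 ± 0.17, the one gene of the 12 whose sign turned. Otud1, a deubiquitinase gene, was at -0.43 ± 0.08 and -0.13 ± 0.08, and Msantd1, which overlaps Htt on the same strand, at -0.47 ± 0.09 and -0.03 ± 0.09. Kdm6b was at -0.40 ± 0.07 and -0.11 ± 0.07, and Adrb1 at -0.39 ± 0.07 and -0.13 ± 0.07.

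The test of that difference, the interaction of angiotensin II and hydralazine, called 0 of 16747 genes (0.0%; limma, with 461 genes, 2.75%, at an unadjusted p under 0.05). Its smallest p values belonged to Btg2 (1.1 ± 0.24, unadjusted p = 0.000108), Sh3bgr (0.55 ± 0.13), Dusp1 (1.14 ± 0.26, unadjusted p = 0.000252), Mfap1b (0.79 ± 0.22) and mt-Co2 (0.99 ± 0.28), all with a limma adjusted p of 0.9998. Mfap1b has a near-identical copy in the mouse genome and mt-Co2 has nuclear copies, so their read assignment is uncertain. Of the 24 immediate early transcription factor genes 21 had an interaction above 0, with a median of 0.22, beside 8428 of 16747 and 0.0011 over all genes. That list was drawn up with differences of its members in these libraries known, and AngII minus Vehicle is part of the interaction. Its count is therefore not independent evidence. On simulated data with the depth and spread of the hemisphere, the interaction fit recovered 34% of 1.5-fold changes and 72% of 2-fold changes. The pooled fit recovered 83% and 88%. In the simulation each gene varied on its own and no library deviated as a whole. Its interaction changes lay in the AngII+Hyd libraries only, so these shares may not hold for the data.

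**Figure D3:**
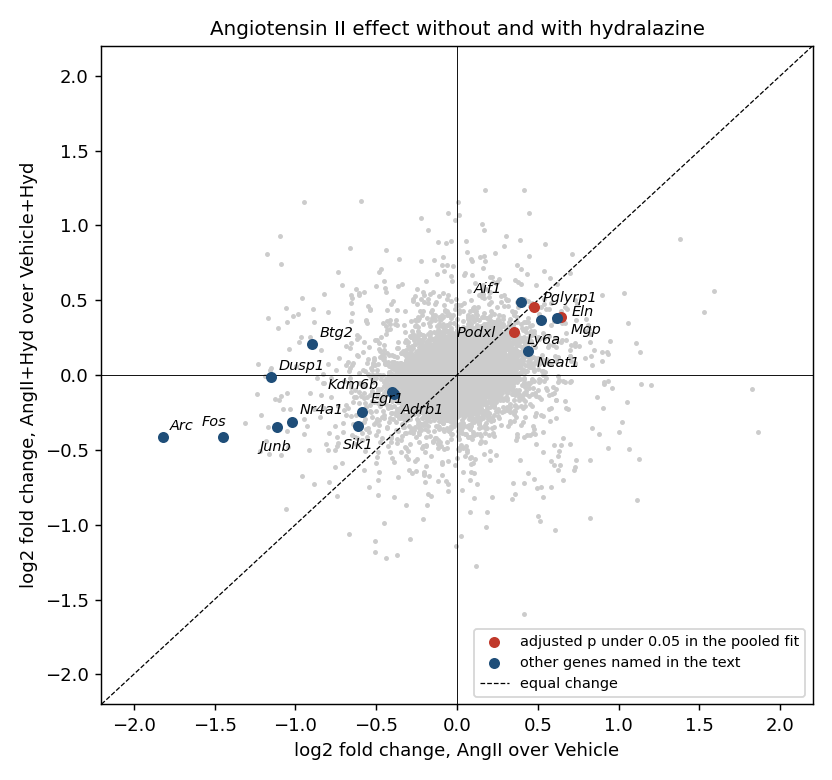
Log2 fold change of each of 16747 genes between AngII and Vehicle (x axis) and between AngII+Hyd and Vehicle+Hyd (y axis). Podxl, Eln and Pglyrp1 (red) lie in the upper right, while Arc at -1.82 and -0.41 and Dusp1 at -1.15 and -0.01 lie left of and above the line of equal change.

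Other lists with most members on one side included markers of tissue that a hemisphere piece can hold in varying amounts. All 14 choroid plexus genes were below 0, with a median of -0.18 and 4 lower at an unadjusted p under 0.05, and their sum was 331.6 to 743.8 FPKM with angiotensin II and 424.4 to 927.0 FPKM without it. Ttr, the transthyretin gene that marks choroid plexus epithelium, was at 284.3 to 686.8 FPKM and 369.0 to 819.8 FPKM, a change of -0.31 ± 0.13 (limma adjusted p = 0.501). With the choroid plexus mean as a covariate the changes were 0.33 for Podxl (adjusted p = 0.0181), 0.50 for Eln (0.0886) and 0.46 for Pglyrp1 (0.0941). Thalamus and midbrain genes were below 0 in 11 of 14, with a median of -0.13, or -0.07 with library weights. The median was -0.26 without hydralazine, AngII replicate 6 included, and -0.05 with it. The part of dissection in the results above was not tested beyond the covariate. Heat shock chaperone genes were below 0 in 17 of 18 with a median of -0.14, or -0.08 both without AngII replicate 6 and with library weights, and circadian clock genes in 14 of 18 with a median of -0.08.

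Genes of the translation and respiration machinery lay slightly above 0. Cytosolic ribosomal protein genes were above 0 in 32 of 33, with a median of 0.14 and 12 higher at an unadjusted p under 0.05, and nuclear respiratory chain genes in 26 of 27, with a median of 0.12 and 12 higher. Both medians were 0.08 without AngII replicate 6, and with quantile scaling they were 0.07 and 0.08. The 15 mitochondrial genome transcripts had a median of -0.11 with that library and 0.03 without it, so their direction turned with 1 library.

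**Figure D4:**
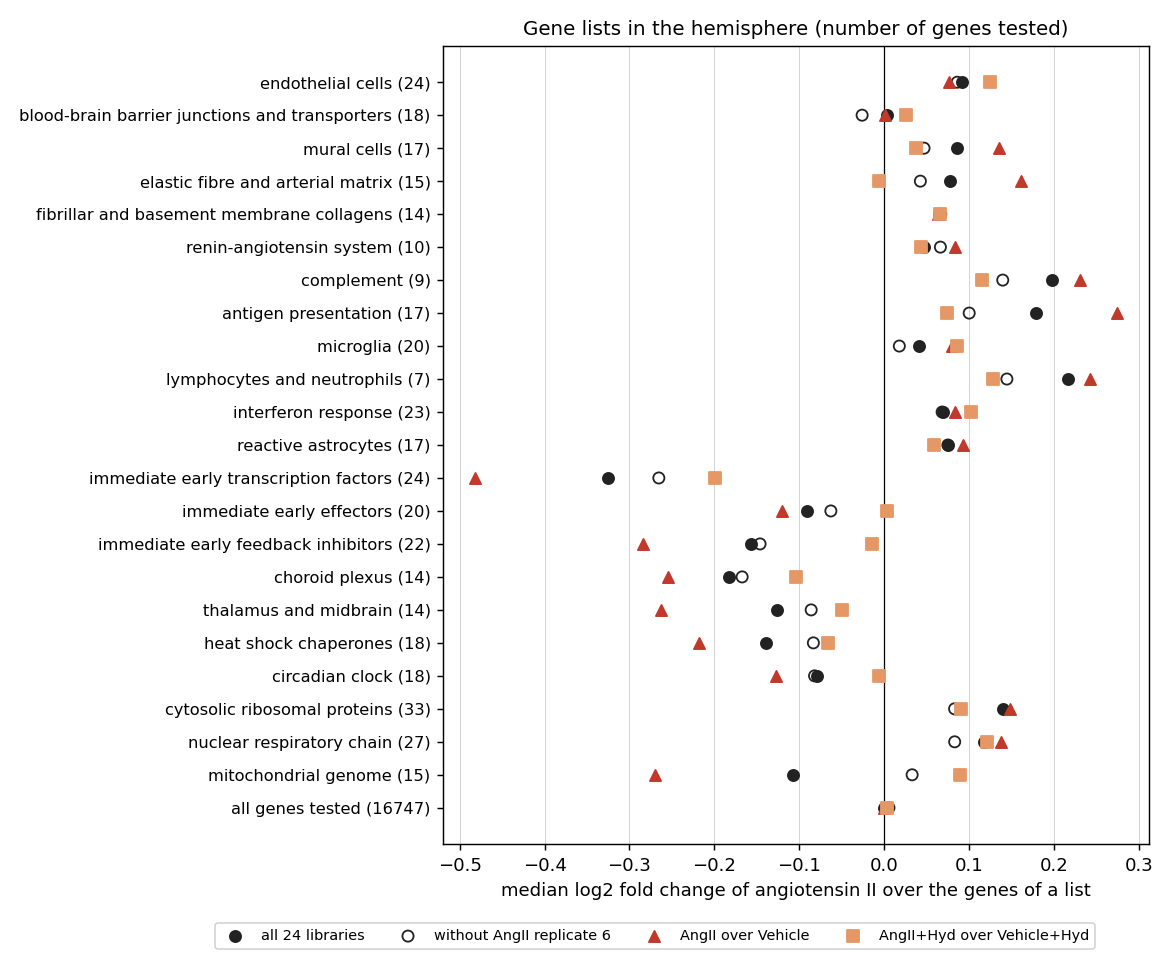
Median log2 fold change of angiotensin II over the tested genes of 22 lists and over all genes tested, with the number of genes in brackets. Filled circles are the pooled effect and open circles the pooled effect without AngII replicate 6. Triangles are AngII over Vehicle, with that library included, and squares AngII+Hyd over Vehicle+Hyd. Immediate early transcription factors stand furthest to the left in the pooled effect at -0.33. Lymphocytes and neutrophils stand furthest to the right at 0.22, over 7 genes, followed by complement at 0.20.

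In the hippocampus the same contrast called 0 of 15267 genes (0.0%; limma, with 565 genes, 3.7%, at an unadjusted p under 0.05). Its libraries were less even, with 1.21 to 21.0 M reads and 7805 to 23044 genes above 0, and the median change over all genes was 0.10. Without the 6 libraries with few genes, an alternative added after the data were seen, 0 genes were called, 946 had an unadjusted p under 0.05 and the median was 0.0092. The smallest p values were again ranked among protein-coding genes averaging at least 1 FPKM, clone names left out. They belonged to Btbd9 (0.38 ± 0.09), Rprm (0.36 ± 0.10), Ahi1 (0.25 ± 0.07), Efhd1 (-0.56 ± 0.16) and Ldoc1 (0.99 ± 0.29), each with a limma adjusted p of 0.856. In the hemisphere these 5 were at 0.08, 0.16, 0.02, -0.08 and -0.0027. Podxl had 4.60 ± 1.02 FPKM with angiotensin II and 4.15 ± 1.67 FPKM without it in the hippocampus (0.20 ± 0.19), Eln 0.843 ± 0.351 FPKM and 0.631 ± 0.362 FPKM (0.27 ± 0.22), and Pglyrp1 8.99 ± 2.98 FPKM and 8.77 ± 3.74 FPKM (0.23 ± 0.39). The hemisphere effect minus the hippocampal one was 0.12 ± 0.19 for Podxl, 0.24 ± 0.24 for Eln and 0.23 ± 0.41 for Pglyrp1, so neither a difference nor its absence was shown.

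Across 14722 genes tested in both regions, 0 differed in their angiotensin II effect (0.0%; limma, with 569 genes, 3.86%, at an unadjusted p under 0.05). Smallest p values were ranked among protein-coding genes averaging at least 1 FPKM, clone names left out. The 5 smallest there included 4 immediate early genes: Junb (-0.93 ± 0.24), Egr2 (-1.24 ± 0.35), Jun (-0.52 ± 0.15) and Arc (-1.22 ± 0.35), all with a limma adjusted p of 0.871. The other was the tubulin-binding protein gene Tppp3 (0.68 ± 0.21). In the hippocampus Junb was at 51.1 ± 11.5 FPKM with angiotensin II and 46.3 ± 15.3 FPKM without it, and Arc at 55.6 ± 18.6 FPKM and 53.4 ± 25.8 FPKM. The median change of the 24 immediate early transcription factor genes there was 0.09, near the 0.10 of all genes. Ly6a was at 39.1 ± 9.79 FPKM and 40.3 ± 12.01 FPKM in the hippocampus (-0.04 ± 0.14), with a difference between regions of 0.49 ± 0.17 that did not pass.

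**Figure D5:**
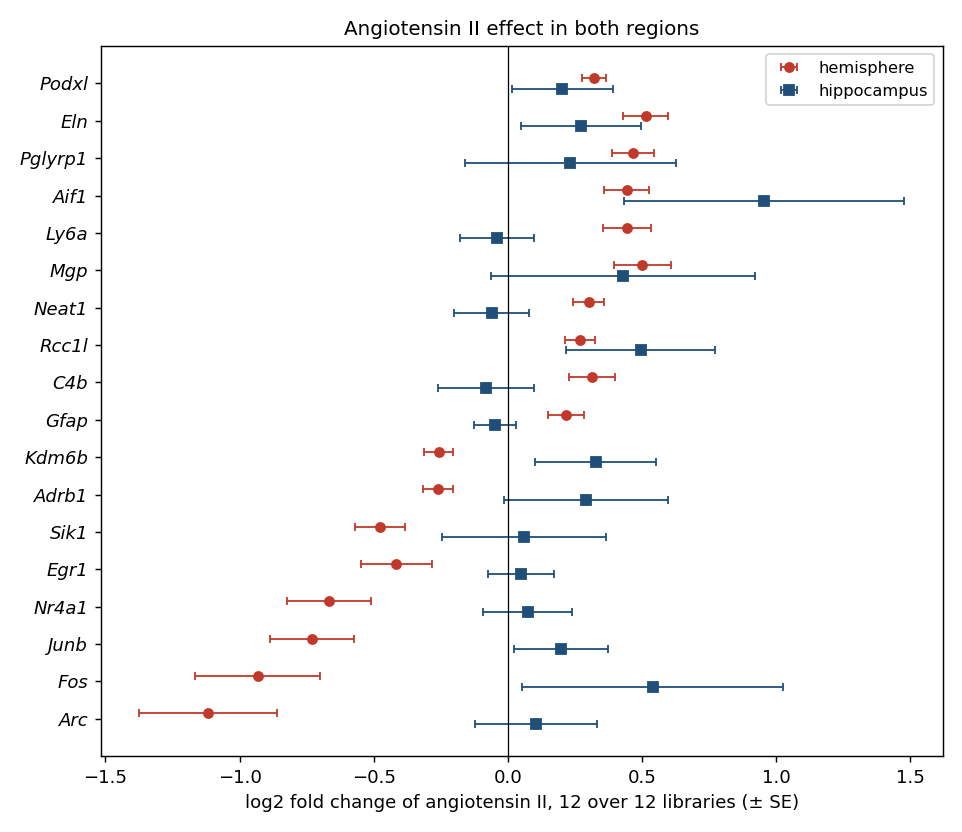
Log2 fold change of angiotensin II in the hemisphere (circles) and the hippocampus (squares) for 18 genes, each over 12 and 12 libraries, with SE as bars. Podxl lies at 0.32 in the hemisphere and 0.20 in the hippocampus, and Arc at -1.12 and 0.10.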

How the data were processed

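RNA was extracted from brain hemisphere or hippocampus and libraries were made by a sequencing company, per the labels' protocols. A single table with gene lengths and coordinates holds the FPKM that the authors deposited for 54532 genes in 48 libraries. Builds GRCm38 and mm10 and the tool DESeq 1.10.1 stand in the submitters' processing notes. The choice of aligner, counter and strand setting is not given in the sources used here. Because FPKM are normalized, they were given to no count model. Multiplied by gene length they gave whole reads in 100% of values (tolerance 0.1 read), which served to describe depth.

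Genes reaching 0.5 FPKM in 6 or more libraries of a fit were tested as log2(FPKM + 0.5) with limma 3.58.1 in R 4.3.3 (mean-variance trend, robust prior, two-sided, Benjamini-Hochberg adjusted p under 0.05 over all genes). The pooled fit took angiotensin II and hydralazine as additive terms; interaction, hippocampus and region difference were fitted as their own contrasts. The fits were tested on simulated data with 200 changed genes, with 10 false calls in the pooled fit and 7 in the interaction. Figures used Python 3.11.15, pandas 2.3.3 and matplotlib 3.10.9. Every value column matched 1 library. All 60 pairs of libraries within hemisphere groups differed beyond sampling noise (chi-square per gene 3.08 or more).

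The comparison, the 44 gene lists and the fixed genes were chosen with earlier results of these data known. Since fewer than 5 genes passed, the named genes are 10 protein-coding genes of smallest p (at least 1 FPKM, no clone names) and the fixed genes. The same limits gave the 5 with the smallest p in each other contrast. Alternatives were other pseudocounts (0.1, 1), other filters (0.1 FPKM, 1 FPKM, none), scaling by median of ratios or quantiles, plain limma, library weights, a replicate block, each library left out, no hydralazine term, 1 mean per group, the 12 libraries without or with hydralazine alone, a choroid plexus covariate and removal of each library's trend on gene length.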

Additional observations from a re-analysis of the deposited data

Results flagged for a closer look

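Among 132 pairs of a named gene and a hemisphere group, 15 had 1 library far from the other 5 of its group. Chance flags about 1 in 20 groups. Of the 15, 9 came from AngII replicate 6. That library was the highest of AngII for Rcc1l (8.291 FPKM, against 5.425 to 6.345 FPKM in the others), Cldn5 (73.03 FPKM), Agt (75.99 FPKM), Gfap (113.9 FPKM), H2-Eb1 (13.45 FPKM, against 3.09 to 4.691 FPKM) and Mbp (634.9 FPKM). It was the lowest for Adrb1 (5.946 FPKM), Itm2a (24.66 FPKM) and Vcam1 (1.275 FPKM, against 2.387 to 2.75 FPKM).

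Vehicle replicate 3 was the lowest of its group for Junb (19.6 FPKM, against 35.7 to 43.59 FPKM in the others) and Msantd1 (0.9292 FPKM). Vehicle replicate 1 was the highest of its group for Mbp (598.3 FPKM), and Vehicle+Hyd replicate 1 for Cldn5 (60.24 FPKM). In AngII+Hyd, replicate 1 was the lowest for Pecam1 (3.78 FPKM) and replicate 4 for Edn1 (1.449 FPKM, against 3.439 to 5.38 FPKM).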

How the results depend on the processing

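The pooled count of 3 genes was 1 with no filter, 8 with quantile scaling (7 higher, 1 lower), 99 with library weights (70 higher, 29 lower), 5 with 1 mean per group, 2 in only the libraries without hydralazine, 0 in only those with it and 12 with the endothelial covariate added after seeing the data (2 higher, 10 lower). Leaving out each library gave 2 to 11 calls, the most without AngII+Hyd replicate 4, with 6 without AngII replicate 1 or Vehicle replicate 1 and 5 without Vehicle+Hyd replicate 3. With library weights the hippocampus gave 8 calls and the region difference 1. The replicate block gave 1 call, Podxl, with adjusted p values in limma of 0.0597 for Eln and 0.0687 for Pglyrp1. Same-numbered libraries of different groups correlated by -0.208 to 0.473 (median 0.004, 3 of 36 pairs over 0.1). Between Vehicle and Vehicle+Hyd the values were 0.473, 0.095, 0.156, 0.082, 0.067 and 0.089 for replicates 1 to 6, all above 0. Whether the numbers pair libraries was not settled. The block moved no other count of calls. Of 1353 values of 33 named genes under 41 settings, 1333 kept their direction, 24 calls were lost and 36 gained. The 20 that turned were Ace (-0.0323 with library weights, -0.0326 with hydralazine only, -0.1316 with the endothelial covariate, -0.0374 to 0.0324 on leaving out a library in turn), Vcam1 (0.0214 with library weights, 0.0664 with hydralazine only, 0.0033 with the length trend removed, -0.0492 to 0.0339 on leaving out a library in turn), Mbp (-0.0067 with quantile scaling, -0.0064 with the endothelial covariate), Cldn5 (-0.0442) and Agt (-0.0269) with that covariate, Itm2a (-0.0737 without hydralazine) and Btg2 (0.2051 with hydralazine only). Of these 7 genes only Btg2 had an unadjusted p under 0.05 in the pooled fit. The cause was not tested. Genes below 0.5 FPKM, such as Agtr1a and Il1b, were not tested.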

Other observations

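Edn1 had 1 or more low libraries in each hydralazine group: 5 of 6 AngII+Hyd libraries held 3.44 to 5.38 FPKM and replicate 4 held 1.45 FPKM, while 4 Vehicle+Hyd libraries held 3.43 to 4.73 FPKM and replicates 3 and 4 held 0.825 and 1.51 FPKM. All 12 libraries without hydralazine lay between 0.887 and 1.75 FPKM.

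Several lists that mark other regions or states stayed near 0 in the pooled effect: neuron identity (14 of 20 above 0, median 0.03, but 5 of 20 and -0.02 with quantile scaling), synaptic receptors and scaffolds (7 of 22, -0.02, or -0.0046 without AngII replicate 6), striatum (5 of 14, -0.04), hippocampus (8 of 15, 0.01, or 0.0011 without that library and -0.0064 with library weights), hypoxia response (10 of 18, 0.02, or 0.0021 without that library and -0.0083 with quantile scaling), amyloid, tau and lipid genes (7 of 20, -0.02, or -0.0027 without that library and 0.0074 with the length trend removed) and NADPH oxidase and antioxidant genes (11 of 21, 0.0054, or 0.02 without that library). Adrenergic, dopamine and serotonin receptor genes were above 0 in 2 of 14, with a median of -0.06.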
